A study of Homo sapiens with 42 samples.

Results

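Regions lying in the first intron of a gene and more than 3 kb from the nearest annotated gene start were read out of 4 tables of chromatin accessibility, 1 for each of 4 human lung adenocarcinoma cell lines with mutant EGFR. They were the regions that the deposited annotation placed in intron 1 of a transcript. They numbered 6237 of 69565 annotated regions in PC9, 7810 of 76952 in H1975, 2735 of 30709 in HCC827 and 6929 of 65264 in HCC2935, which is 23711 of 242490 in all. The remaining intron regions, those placed in any later intron at the same minimum distance, numbered 10421, 13061, 4390 and 12467 in the same order and served as the background. The assay was ATAC-seq, where a transposase cuts DNA that is open, and each value is the number of reads counted in a region of fixed width.

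The libraries numbered 42 and fell into 14 groups of 3. In every line, control cells grew for 21 days without drug and then for 3 days with the vehicle DMSO, and DTP (drug-tolerant persister) cells received 500 nM of osimertinib, an inhibitor of mutant EGFR, for 24 days. Combo cells received 500 nM of osimertinib for 21 days and then 150 nM of AZD5153, a bivalent inhibitor of the BET family of bromodomain proteins, for 3 days. PC9 and H1975 had 1 more group, named AZD5153, which grew for 21 days without drug and then received 150 nM of AZD5153 for 3 days. The labels call the libraries biological triplicates but name no separate cultures, so p-values measure the spread between these libraries, which may be technical.

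The first intron follows the first splice donor site and is, in many human genes, the longest intron. It often holds enhancers, short stretches of open chromatin where transcription factors bind and from which they act on promoters of the same or of other genes. BET proteins bind acetylated histones at such enhancers and at promoters and recruit the elongation machinery. Osimertinib shuts off signalling from EGFR to the ERK kinases, whose output reaches many enhancers through factors of the AP-1 and ETS families.

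The members lay at a median of 13113 bp from the nearest gene start in PC9, 12894.5 bp in H1975, 12930 bp in HCC827 and 14045 bp in HCC2935, and the farthest at 99927 bp. The gene that hosts the intron was also the gene of the nearest start for 69.42%, 71.61%, 74.95% and 71.21% of them in the same order. The first introns belonged to 2512, 2872, 1241 and 2567 host genes. A start that RefSeq lists, but that the annotation of the tables placed elsewhere or lacked, lay within 3 kb of 3.75%, 3.44%, 3.4% and 3.38% of the members, against 2.45%, 2.53%, 2.94% and 2.32% of the remaining intron regions. All members were tested except in HCC827, where 2716 of the 2735 passed the filter on low counts.

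Sequences are shown for members that hold a RefSeq start, since RefSeq promoter windows were the sequence source used here. A window of 300 bases around a start lay wholly inside a member for 40 starts, in 73 pairs of a region and a line. Of these starts, 8 lay in members called in a single direction for DTP against control in at least 2 lines, and all 8 are given. The 250 bases before the start are written 5′ to 3′ on the strand of the RefSeq transcript (GRCh38.p14), and capitals mark an AP-1 motif (TGANTCA) or a TEAD motif (GGAATG) found on either strand. The first 3 rose in DTP cells of at least 2 lines and the last 5 fell.
LOC105373882, chr2:218897026-218897275, minus strand: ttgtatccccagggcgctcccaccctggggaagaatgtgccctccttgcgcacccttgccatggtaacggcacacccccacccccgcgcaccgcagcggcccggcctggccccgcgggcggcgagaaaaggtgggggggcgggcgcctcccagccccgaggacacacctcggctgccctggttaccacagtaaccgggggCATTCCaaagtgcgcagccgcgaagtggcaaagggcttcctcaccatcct
LOC107986283, chr4:57132090-57132339, plus strand: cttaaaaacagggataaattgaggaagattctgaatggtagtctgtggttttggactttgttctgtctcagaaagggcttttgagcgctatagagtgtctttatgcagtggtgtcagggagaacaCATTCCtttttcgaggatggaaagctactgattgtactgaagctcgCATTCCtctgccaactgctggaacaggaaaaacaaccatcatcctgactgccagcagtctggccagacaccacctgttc
LOC105370998, chr15:96053377-96053626, minus strand: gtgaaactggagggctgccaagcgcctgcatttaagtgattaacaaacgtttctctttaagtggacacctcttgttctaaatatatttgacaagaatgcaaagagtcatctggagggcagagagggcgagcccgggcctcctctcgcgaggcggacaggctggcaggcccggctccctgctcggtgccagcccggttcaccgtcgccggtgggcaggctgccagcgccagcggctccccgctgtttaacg
LOC100126584, chr6:125197818-125198067, minus strand: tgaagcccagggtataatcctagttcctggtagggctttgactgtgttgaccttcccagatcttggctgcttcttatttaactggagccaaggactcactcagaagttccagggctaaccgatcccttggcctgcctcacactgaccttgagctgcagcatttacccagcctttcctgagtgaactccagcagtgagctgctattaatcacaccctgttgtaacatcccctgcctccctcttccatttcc
LOC124905128, chr22:42937456-42937705, plus strand: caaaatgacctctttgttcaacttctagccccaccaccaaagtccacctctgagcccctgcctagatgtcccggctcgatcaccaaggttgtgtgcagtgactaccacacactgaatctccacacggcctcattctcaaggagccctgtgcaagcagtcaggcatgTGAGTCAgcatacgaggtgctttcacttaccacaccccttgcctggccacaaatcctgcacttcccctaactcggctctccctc
LOC105375208, chr7:28037266-28037515, plus strand: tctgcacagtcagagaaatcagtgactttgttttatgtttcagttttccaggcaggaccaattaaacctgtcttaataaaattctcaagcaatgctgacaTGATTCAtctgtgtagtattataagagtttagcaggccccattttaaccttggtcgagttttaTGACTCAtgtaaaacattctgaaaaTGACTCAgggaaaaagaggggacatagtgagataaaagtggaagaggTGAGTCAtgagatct
LOC107986160, chr3:183285806-183286055, plus strand: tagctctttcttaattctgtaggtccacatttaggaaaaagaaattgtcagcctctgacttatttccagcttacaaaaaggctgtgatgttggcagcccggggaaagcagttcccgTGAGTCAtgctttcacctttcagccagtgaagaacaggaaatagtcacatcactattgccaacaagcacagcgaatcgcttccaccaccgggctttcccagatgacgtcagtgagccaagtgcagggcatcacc
LOC124901596, chr7:17099510-17099759, minus strand: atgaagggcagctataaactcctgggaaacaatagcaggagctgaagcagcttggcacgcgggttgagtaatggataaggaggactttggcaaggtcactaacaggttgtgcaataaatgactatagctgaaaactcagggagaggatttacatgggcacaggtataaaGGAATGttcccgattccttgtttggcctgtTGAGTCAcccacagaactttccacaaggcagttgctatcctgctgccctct

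The region around the LOC105373882 start, 13.0 kb from the start of WNT10A, a secreted WNT ligand, carried 1 TEAD match. In HCC2935 its level in CPM, the counts scaled to a common library total, was 1.97, 4.72 and 6.57 in the control libraries and 29.4, 25 and 21.9 in the DTP libraries, a log2 fold change of 2.61 ± 0.22 (SE, edgeR adjusted p = 6.35e-13). In H1975 it rose by 1.55 ± 0.134 on the log2 scale (adjusted p = 2.46e-23), and in PC9 the change of 0.19 ± 0.122 did not pass the test (adjusted p = 0.236). The region around the LOC107986283 start, in intron 1 of IGFBP7-AS1, carried 2 TEAD matches and rose by 4.46 ± 0.427 in HCC2935 (adjusted p = 1.96e-11) and by 1.27 ± 0.275 in PC9 (adjusted p = 4.66e-05). The region around the LOC105370998 start rose in PC9, H1975 and HCC2935, by 0.53 ± 0.2, 0.62 ± 0.21 and 0.99 ± 0.238, with adjusted p-values of 0.0313, 0.00829 and 0.00092.

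Among the 5 that fell, the region around LOC100126584 lies in intron 1 of TPD52L1, a coiled-coil protein of the tumour protein D52 family. It fell by 1.96 on the log2 scale in H1975, from 4.02, 5.78 and 7.01 CPM in control to 1.02, 1.93 and 1.34 CPM in DTP (adjusted p = 3.28e-12), and by 1.37 in HCC2935 (adjusted p = 8.11e-05). The region in intron 1 of PACSIN2, which shapes membranes in endocytosis, fell by 0.73 in PC9 (adjusted p = 1.1e-05) and by 0.23 in H1975 (adjusted p = 0.014). The region in intron 1 of JAZF1, a zinc finger protein, carried 4 AP-1 matches and fell by 0.38 in PC9 (adjusted p = 0.0154) and by 0.27 in H1975 (adjusted p = 0.012). Its changes in HCC2935, 0.34 ± 0.148 (adjusted p = 0.0692), and in HCC827, 0.34 ± 0.402, were upward and did not pass. The region around LOC107986160, in intron 1 of B3GNT5, a glycosyltransferase, carried 1 AP-1 match and fell by 0.71 in PC9 (adjusted p = 5.67e-16) and by 0.35 in H1975 (adjusted p = 5.23e-05). The region around LOC124901596, 32.3 kb from the start of AHR, the aryl hydrocarbon receptor, carried both an AP-1 and a TEAD match and fell by 1.22 in H1975 (adjusted p = 1.05e-10) and by 0.75 in HCC2935 (adjusted p = 0.0346). TEAD matches thus lay in regions that rose and in 1 that fell. Over all 40 starts, 32.5% of the windows of 300 bases held an AP-1 match, against 7.71% of all 35116 RefSeq windows of that length, and 8 of the 40 a TEAD match, against 14.0%. An ETS motif (CCGGAAG) was in 5.0% against 10.3%, a forkhead motif (TGTTTAC) in 7.5% against 3.42%, and an E-box (CANNTG) in 82.5% against 68.7%, each on either strand. The median GC content was 54.8% for the 40 windows and 58.7% for all. The 40 lie in open intronic regions over 3 kb from annotated starts, some overlap each other, and the 35116 hold RefSeq starts of all kinds. Windows in remaining intron regions were not counted, so these shares give no trait of first introns.

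Each line had its own table and was fitted on its own, on all regions counted in it. Total counts ran from 3989287 to 5193390 in PC9, 6200672 to 10062505 in H1975, 1724680 to 4242868 in HCC827 and 3968690 to 8066287 in HCC2935. All 6 epithelial marker genes had a promoter region in every line, and so did 0 to 2 of 5 haematopoietic, 1 to 2 of 4 fibroblast and 1 to 4 of 4 endothelial markers. The libraries of PC9 and H1975 differed within groups by little more than counting noise, with a variance between replicate pairs of 0.959 to 1.04 and 0.966 to 1.223 times that of counting, so small changes pass the test there. In HCC827 the libraries numbered 3 stood apart, at 3.866 to 8.764 times counting noise in pairs with the others and 1.206 to 1.922 between the others, and its counts of calls and its shares are given with and without them. In bulk libraries, fewer cells with an open region and less opening per cell cannot be told apart.

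In PC9, first-intron regions fell more often than they rose in DTP cells. Of 6237 members, 1116 rose (17.9%) and 2047 fell (32.8%) at an adjusted p under 0.05, and the median log2 fold change was -0.19. Among all 126506 regions tested, 15.4% rose and 16.4% fell, and among promoters 14.9% and 14.6%. The remaining intron regions lay close to the first-intron regions, with 19.1% higher, 29.3% lower and a median of -0.14. The change differed little with the distance to the nearest gene start, at 34.0% lower for 3 to 10 kb, 33.0% for 10 to 30 kb and 30.3% beyond 30 kb. With the 3 libraries of a group summed and the dispersion of HCC2935 in place of its own, 2042 members were called in PC9 rather than 3163. These were 32.7%, against 21.0% of annotated and 31.2% of remaining intron regions.

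H1975 showed the same lean with more regions called. Of 7810 members, 1850 rose (23.7%) and 3884 fell (49.7%) in DTP cells, with a median of -0.335, while 24.9% of all 191202 regions tested rose and 27.0% fell. Of the remaining intron regions 27.7% rose and 45.3% fell, with a median of -0.207, and of promoters 26.1% and 27.0%. Scaling by library size alone instead of TMM moved the members' median by 0.197 to -0.138 and gave 2460 higher (31.5%) and 3358 lower (43.0%). Annotated regions gave 38.0% and 29.2%, and the remaining intron regions 35.8% and 39.5%. Members in transcripts with over 10 introns fell in 53.1% of cases and those in transcripts with a single intron in 46.8%.

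HCC2935 had no such lean. Of 6929 members, 1878 rose (27.1%) and 1916 fell (27.7%), with a median of 0.002, against 18.7% and 18.6% of all 154179 regions tested. The remaining intron regions gave 27.0% and 26.9%, and promoters 21.5% and 14.8%. Of the members on chromosome 14, 49 of 364 rose and 179 fell, with a median of -0.51, and of those on chromosome 4, 122 of 279 rose and 40 fell, with a median of 0.5. Whether copy number took part in these chromosome-wide medians was not tested.

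In HCC827, 1 member rose (0.0368%) and 0 fell in edgeR at an adjusted p under 0.05. Of all 82309 regions tested 0.0158% rose and 0.00607% fell, and of the remaining intron regions 0.115% and 0.023%. The member that rose, named here after its values were seen, lies in intron 1 of BMP6, a secreted bone morphogenetic protein (chr6:7758347-7758848). It had 1.99, 1.91 and 1.26 CPM in control, 14.3, 16.8 and 18.0 CPM in DTP and 2.79, 3.74 and 3.34 CPM in combo libraries (3.22 ± 0.452 for DTP against control, adjusted p = 0.0497, and 0.000227 with the replicate block). It missed the threshold in all 6 fits that left out 1 control or DTP library, with adjusted p-values of 0.0743 to 0.615. At an unadjusted p under 0.05 edgeR gave 355 members (13.1%, against 8.96% of annotated and 15.1% of remaining intron regions), and DESeq2 called 26 (0.957%, against 0.749% and 1.63%). Samples with the same replicate number deviated together in this line, so the fit was also made with the number as a block. That fit called 88 members higher (3.24%) and 138 lower (5.08%), against 2.23% and 3.02% of all annotated regions, and 4.76% and 4.6% of the remaining intron regions. Without the libraries numbered 3, 40 members rose (1.5%) and 95 fell (3.57%), against 1.04% and 1.77% of annotated regions and 2.04% and 3.09% of the remaining intron regions, and the BMP6 region passed (adjusted p = 0.00199).

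**Figure D1:**
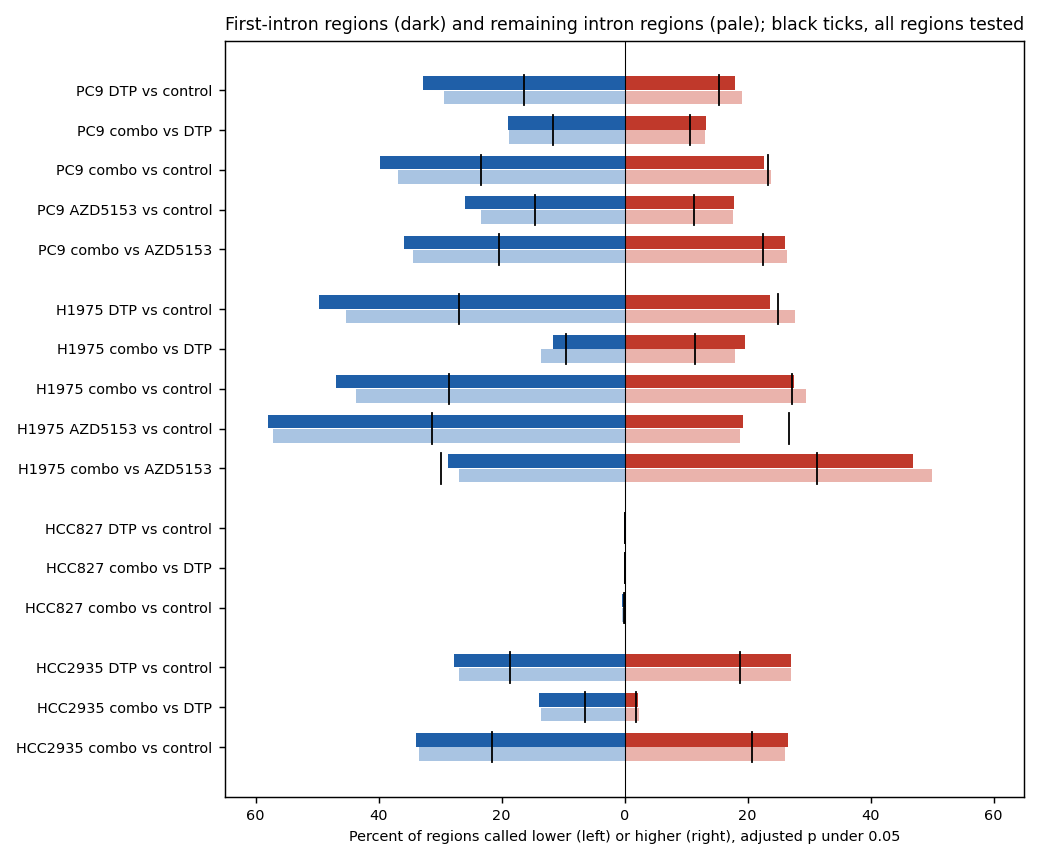
Bars give the percent of regions called lower (left, blue) or higher (right, red) at an edgeR adjusted p under 0.05 in each line and comparison, dark for first-intron regions and pale for remaining intron regions, and black ticks mark the percent among all regions tested. Dark and pale bars lie close together in each comparison, and in H1975 treated with AZD5153 58.0% of first-intron regions were lower.

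**Figure D2:**
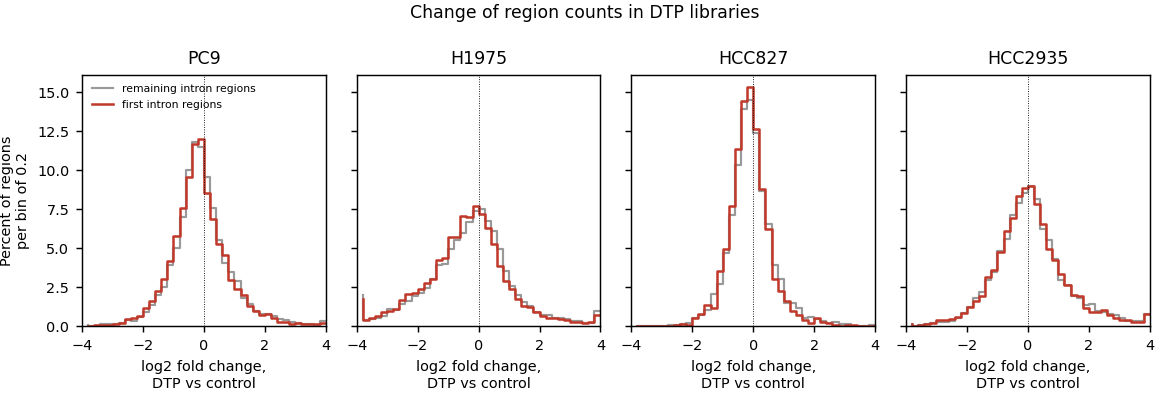
Lines give the percent of regions (vertical axis) in each bin of 0.2 of the log2 fold change of DTP against control (horizontal axis, values beyond 4 placed in the end bins), for first-intron regions (red) and remaining intron regions (grey) of each line. The red curves sit to the left of 0 in PC9 and H1975, with medians of -0.19 and -0.335, and around 0 in HCC2935.

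The share of reads gives a measure that does not depend on calls. Of the reads counted in all intron regions of the tables, first introns held 39.0% ± 0.132 (SD, n = 3) in PC9 control and 38.4% ± 0.0865 in PC9 DTP libraries, and 38.8% ± 0.0425 and 37.8% ± 0.0828 in H1975. The same shares were 42.4% ± 0.0863 and 41.4% ± 0.507 in HCC827, and 37.2% ± 0.153 and 36.9% ± 0.0384 in HCC2935. In each of the 4 lines the 3 DTP libraries lay below the 3 control libraries, by 0.58, 0.96, 1.0 and 0.31 percentage points (two-sided exact permutation test, p = 0.1 in each line, the smallest p that 3 against 3 allows). In HCC827, regions in introns of EGFR held 14.3% ± 2.92 of the first-intron reads of control libraries, and without them the shares were 39.1% ± 0.712 and 38.1% ± 1.1, with overlapping libraries. The libraries of HCC827 numbered 1 and 2 gave 42.4 and 42.3% in control and 41.6 and 40.9% in DTP, and without EGFR 38.7 and 38.8% and 37.9 and 37.1%, so that without the libraries numbered 3 the groups did not overlap.

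Of all reads counted in the line, first-intron regions held 6.92% ± 0.0949 in H1975 control, 5.67% ± 0.212 in DTP, 4.94% ± 0.068 in AZD5153 and 5.84% ± 0.0585 in combo libraries. PC9 gave 5.14% ± 0.155, 4.51% ± 0.0637, 5.05% ± 0.0714 and 4.48% ± 0.0307 for the same groups. In HCC827 the shares were 3.58% ± 0.1 in control, 3.37% ± 0.563 in DTP and 3.03% ± 0.624 in combo, and in HCC2935 5.8% ± 0.314, 5.85% ± 0.211 and 5.46% ± 0.39. The HCC827 libraries numbered 1 and 2 held 3.53 and 3.52% in control, 3.02 and 3.06% in DTP and 2.74 and 2.61% in combo, and those numbered 3 held 3.7, 4.02 and 3.75%. In H1975 the share was lowest with AZD5153 alone, while in PC9 the 3 AZD5153 libraries, at 5.11, 5.07 and 4.97%, overlapped the controls, at 5.3, 4.99 and 5.13%.

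Many members could be matched between lines by overlap. PC9 and H1975 shared 3777 first-intron regions, of which 1431 were called for DTP against control in both, with 190 higher and 1015 lower in both and 226 opposite, which is 15.8% of the 1431 against 17.1% for the remaining intron regions matched in the same way. HCC2935 shared 3449 with PC9, where 272 were higher in both, 381 lower in both and 214 opposite (24.7% of those called in both, against 22.1% of remaining intron regions). It shared 3827 with H1975, where 402 were higher in both, 778 lower in both and 285 opposite (19.5% against 16.9%). Spearman's rho of the log2 fold changes across matched regions was 0.48 for PC9 and H1975 (n = 3777), 0.41 for PC9 and HCC2935 (n = 3449) and 0.51 for H1975 and HCC2935 (n = 3827), as a description, since regions of 1 library share its depth. In all 4 lines 1217 members matched, and 25 rose and 155 fell in each of PC9, H1975 and HCC2935. In HCC827 the fitted change had the same sign for 24 of the 25 and 133 of the 155. Without the libraries numbered 3, it did for 18 of 23 and 128 of 152 that were tested.

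Of the shared regions, the 3 in each direction whose smallest change over the 3 lines was largest are described. The falls included a region in intron 1 of EPCAM, the epithelial cell adhesion molecule, at chr2:47360878-47361379 in PC9. Its level was 24.6, 23 and 25.1 CPM in H1975 control and 2.69, 3.18 and 2.8 CPM in DTP libraries. In PC9 it was 9.53, 7.1 and 9.43 CPM against 2.43, 1.8 and 1.75, and in HCC2935 12, 4.72 and 13.8 CPM against 0.57, 0.992 and 1.14. The groups did not overlap in any of these lines, which the rule for naming regions required. The log2 fold changes were -3.06 ± 0.146 in H1975 (edgeR adjusted p = 1.57e-53), -2.09 ± 0.291 in PC9 (5.79e-11) and -3.46 ± 0.371 in HCC2935 (3.67e-10). In HCC827 the change of -1.61 ± 0.468 did not pass (adjusted p = 0.288) but passed with the replicate block (adjusted p = 0.00952), and without the libraries numbered 3 the change of -1.28 did not pass (0.1). The strongest EPCAM promoter region fell less, by 0.52 on the log2 scale in PC9 (adjusted p = 4.71e-06) and by 0.7 in HCC2935 (9.63e-06), and its change of -0.1 in H1975 did not pass (0.363).

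A region in intron 1 of BSN, which encodes a scaffold protein of the presynaptic active zone, fell in the same 3 lines (chr3:49603003-49603504 in PC9). In H1975 it had 32.0, 28.4 and 29.0 CPM in control and 7.04, 9.98 and 7.61 CPM in DTP libraries, and in HCC2935 10.3, 8.86 and 11.3 against 1.52, 0.496 and 0.954. The changes were -1.85 ± 0.112 (adjusted p = 1.96e-39) and -3.35 ± 0.336 (6.32e-11), and -1.65 ± 0.287 in PC9 (2.74e-07). The groups did not overlap, again as the naming rule required. The third, on chromosome 14 in intron 1 of a transcript without a symbol and 44.0 kb from MIR4708, fell by 2.57, 2.68 and 2.06 in PC9, H1975 and HCC2935 (adjusted p = 4.76e-21, 2.09e-60 and 5.3e-14). In HCC827 the libraries of both groups overlapped at this region.

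Among the shared rises, a region in intron 1 of CNIH3, an auxiliary protein of AMPA glutamate receptors, moved against its host promoter (chr1:224593015-224593516 in PC9). It had 1.59, 1.52 and 1.98 CPM in PC9 control and 6.08, 5.93 and 5.51 CPM in DTP libraries, and 2.01, 4.3 and 4.31 against 16.0, 19.2 and 17 in H1975. It rose by 1.75 ± 0.34 in PC9 (adjusted p = 4.45e-06), 2.27 ± 0.156 in H1975 (6.65e-33) and 1.85 ± 0.314 in HCC2935 (7.13e-06), and in HCC827 by 2.08 with the replicate block (0.00211). Over the same comparison the strongest CNIH3 promoter region fell by 1.79 in PC9 (adjusted p = 3.24e-36) and by 1.61 in H1975 (6.05e-42), and its changes of -0.15 in HCC2935 (0.519) and -0.05 in HCC827 (1.0) did not pass. The CNIH3 region had 1.95, 2.92 and 4.26 CPM in PC9 combo libraries and 23.2, 22.6 and 21.6 CPM in H1975 combo libraries. The other two shared rises lay 17.1 kb from the start of TMCC2 on chromosome 1 and 21.4 kb from LRATD2 on chromosome 8, both in transcripts without a symbol. The TMCC2 region rose most in HCC2935, from 2.18, 1.48 and 2.19 to 20.1, 22.7 and 18.5 CPM (3.36 ± 0.242, adjusted p = 5.36e-15), and the LRATD2 region most in H1975 among the lines where it was called (3.64 ± 0.308, 4.31e-24). In HCC827 the LRATD2 region had 9.96, 17.8 and 2.95 CPM in control and 53.7, 63.7 and 129.0 in DTP libraries (3.05 ± 0.589, adjusted p = 0.117), and it passed with the replicate block (2.98, 0.00024), in DESeq2 (3.12, 0.00014), without the filter on low counts (3.23, 0.0319) and without the libraries numbered 3 (2.14, 0.000285). The TMCC2 region there had a change of 1.52 ± 0.51 (0.38), which passed with the replicate block (1.49, 0.0321) but not without the libraries numbered 3 (0.85, 0.35).

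**Figure D3:**
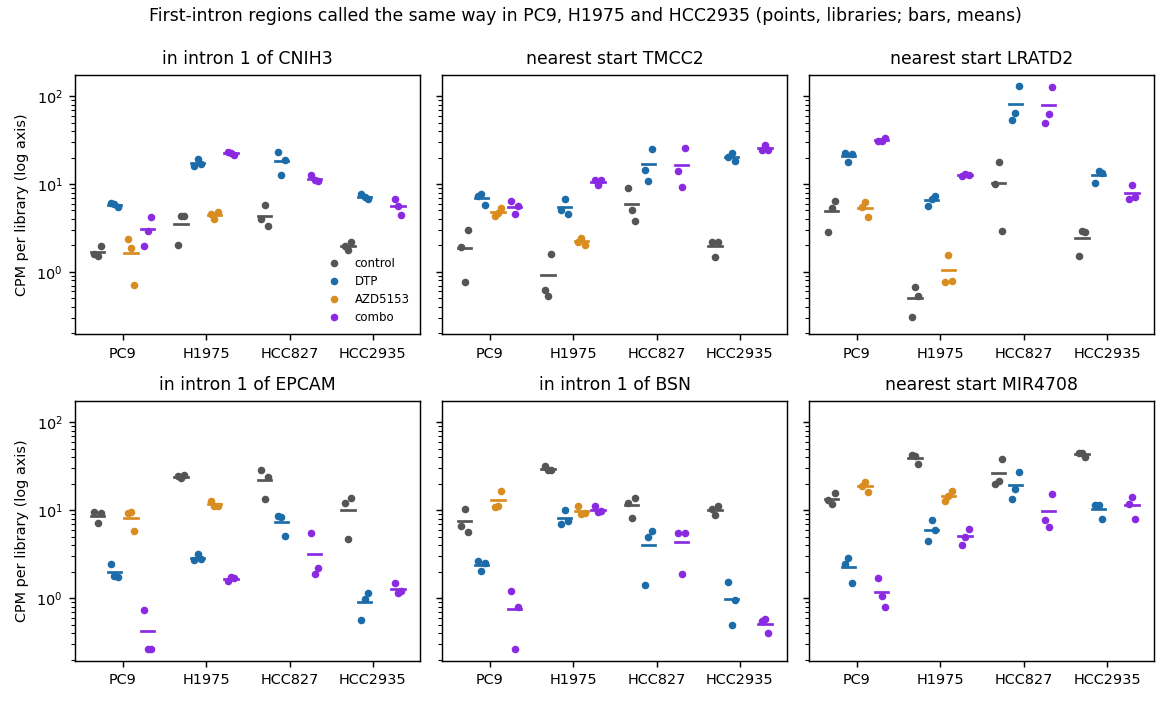
Points give the CPM of each library (log axis) and short bars the group means for the 6 first-intron regions with the largest shared changes, by line and group. The upper 3 lie higher in DTP (blue) than in control (grey) libraries of every line, as in HCC2935 at 20.1, 22.7 and 18.5 CPM against 2.18, 1.48 and 2.19 near TMCC2, and the lower 3 lie lower in PC9, H1975 and HCC2935.

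Among members above the median level of their line, the largest changes were in regions near 0 in 1 of the groups. In H1975 a region in intron 1 of KCNMA1, the pore subunit of the BK potassium channel, had 0.0 CPM in all 3 control libraries and 4.48, 4.88 and 4.25 CPM in DTP libraries (chr10:77290762-77291263, adjusted p = 7.44e-24), while 14 of the other KCNMA1 members fell. Another in intron 1 of OSMR-DT, a transcript running away from the oncostatin M receptor gene, went from 0.155, 0.135 and 0.0 CPM to 11.3, 11.6 and 10.6 in H1975 DTP and to 30.7, 31.2 and 34.6 in combo libraries (chr5:38816157-38816658, adjusted p = 3.72e-44 for DTP). The matching region was the 1 member that rose in HCC827 combo against control, with 1.99, 1.91 and 0.843 CPM in control and 16.7, 14.0 and 21.5 in combo libraries (3.46 ± 0.591, adjusted p = 0.0491, and 0.000193 with the replicate block), and it missed the threshold when any 1 control or combo library was left out. In HCC2935 regions in the first introns of KIRREL3 and NEGR1, adhesion proteins of the immunoglobulin family, rose. The KIRREL3 region had 0.218, 0.0 and 0.0 CPM in control and 13.1, 11.7 and 8.4 CPM in DTP libraries (adjusted p = 3.46e-13), and the NEGR1 region 0.0, 0.295 and 0.0 against 7.98, 5.46 and 8.4 CPM (8.3e-11). In PC9 a region in intron 1 of FANCC, of the Fanconi anaemia core complex, rose from 0.318, 0.254 and 0.744 to 9.72, 11.1 and 11.5 CPM (4.49 ± 0.388, adjusted p = 2.44e-26), and the FANCC promoter changed by 0.2 (adjusted p = 0.188).

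By the same rule, the largest fall in H1975 was in intron 1 of GAPVD1, a regulator of endocytosis, from 27.4, 24.5 and 22.1 CPM in control to 0.512, 0.34 and 0.0 in DTP libraries (chr9:125284358-125284859, -6.41 ± 0.242, adjusted p = 1.19e-69). Its promoter changed by 0.01 (adjusted p = 0.946). In PC9 a region in intron 1 of CDCP1, a membrane substrate of SRC kinases, fell from 23.5, 23.3 and 22.8 to 2.92, 3.61 and 1.5 CPM (-3.1 ± 0.209, adjusted p = 2.96e-41), again beside a promoter with a change of -0.07 (0.728). AZD5153 alone left this CDCP1 region at 28.2, 26.0 and 29.6 CPM. In PC9 a region in intron 1 of SP3, a transcription factor of the SP family, fell with both drugs, from 11.1, 13.2 and 17.1 CPM in control to 1.7, 2.32 and 1.0 in DTP, 1.68, 2.09 and 1.64 in AZD5153 and 0.732, 0.0 and 0.0 in combo libraries. In HCC2935 the largest fall was in intron 1 of TENM4, a teneurin adhesion protein, from 34.1, 28.6 and 32.9 to 1.52, 0.827 and 0.954 CPM (-4.84 ± 0.252, adjusted p = 2.58e-19).

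In some host genes every member was called in 1 direction. Of 289 host genes with at least 5 members in H1975, all members rose for 3 (1.04%) and all fell for 23 (7.96%), against 0.962% and 2.56% of 624 host genes with at least 5 remaining intron regions. The counts were 0 and 2 of 192 in PC9 (1.04% lower, against 0.426% for the remaining introns), and 4 and 7 of 272 in HCC2935 (1.47% and 2.57%, against 0.776% and 1.71%). The number of regions a gene was not matched between the classes. In H1975 the 7 members in intron 1 of ITGA6, the integrin alpha subunit that binds laminin, all fell, with a median log2 fold change of -2.95. Their summed level was 86.3, 88.1 and 88.4 CPM in control, 34.9, 39.7 and 35.5 in DTP, 51.2, 48.8 and 50.8 in AZD5153 and 36.9, 36.9 and 40.5 in combo libraries, so that all treated libraries lay below all controls. The ITGA6 promoter fell by 1.36 (adjusted p = 3.08e-21). In the first introns of NT5C2, a cytosolic nucleotidase, and ARHGAP26, a RHOA GTPase-activating protein, all 8 and all 7 members fell in H1975, with medians of -1.04 and -1.81.

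Among the genes whose members all rose, the non-coding RNA gene LINC00662 had 15 members in H1975, between the positions chr19:27760959-27771276, and all rose, with a median log2 fold change of 3.82. Their summed level went from 5.88, 6.46 and 7.28 CPM in control to 110.0, 99.6 and 110.0 in DTP, was 4.39, 5.57 and 5.13 in AZD5153 and 40.0, 41.4 and 40.1 in combo libraries. In HCC2935 all 5 members of KIRREL3 rose, from a sum of 1.75, 1.77 and 3.76 to 56.0, 46.8 and 42.9 CPM, and all 7 of GFOD1 from 9.39, 9.45 and 16.0 to 84.7, 72.9 and 57.4 CPM. NAV2, a helicase-like protein of neuronal outgrowth, had the most members in HCC2935, and 28 of 32 rose and 0 fell in edgeR, with sums of 228.0, 206.0 and 224.0 CPM in control and 425.0, 434.0 and 413.0 CPM in DTP libraries. In H1975 2 of the 18 NAV2 members rose and 12 fell, and in PC9 8 of 24 rose and 6 fell. With the medians of 10 Mb bins subtracted, 11 of the 32 NAV2 members in HCC2935 rose and 4 fell, while the 7 of GFOD1 and the 5 of KIRREL3 all still rose.

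Other host genes differed between lines as well. SLC7A5, a subunit of the large neutral amino acid transporter, had 5 members that all rose in H1975 DTP libraries, from 31.4, 27.2 and 29.9 to 62.6, 57.4 and 62.0 CPM in sum. In PC9 its 3 members went from 60.7, 52.7 and 53.8 to 32.1, 30.2 and 30.0 CPM. In HCC2935 the members in the first introns of DAGLA, MAD1L1 and BEGAIN all fell, 7, 7 and 6 of them, and 0, 4 and 2 still fell in edgeR with the medians of 10 Mb bins subtracted. In HCC827, EGFR itself had 156 members, with summed levels of 8820.0, 8540.0 and 6190.0 CPM in control and 7720.0, 8180.0 and 5880.0 in DTP libraries, and 0 were called in edgeR (2 higher and 1 lower with the replicate block). The other lines had 16, 12 and 11 EGFR members in PC9, H1975 and HCC2935, with means of 399.0, 281.0 and 186.0 CPM in control.

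**Figure D4:**
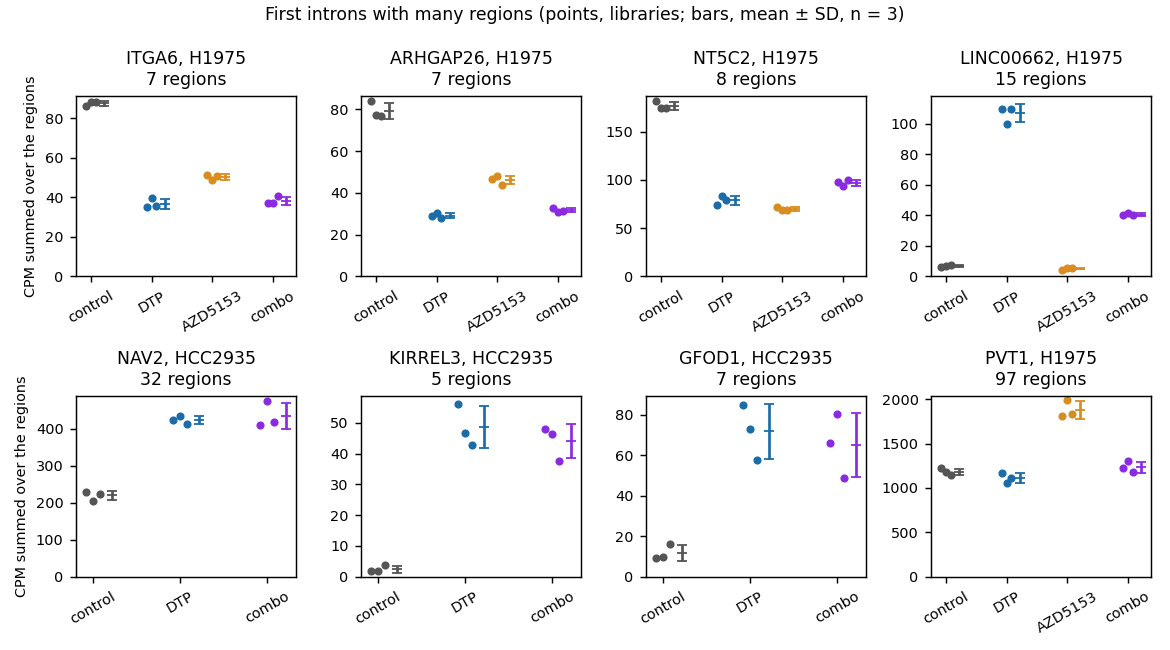
Points give the CPM summed over the first-intron regions of a host gene in each library, with the mean and SD of 3 libraries beside them, for 8 combinations of a gene and a line. The 3 DTP libraries lie below the controls for ITGA6, ARHGAP26 and NT5C2, above them for LINC00662, NAV2, KIRREL3 and GFOD1, and in PVT1 the AZD5153 libraries are highest, at 1810.0, 1990.0 and 1830.0 CPM.

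Members of gene lists were taken by host gene, and each region was counted. In H1975 they lay in 12 of 43 integrin, collagen and laminin genes, 12 of 32 receptor kinase genes and 3 of 21 ERK genes. They lay in 13 of 34 YAP and TEAD genes, 6 of 28 TGF-beta and transition genes, 5 of 32 lineage genes, 8 of 32 WNT genes and 4 of 24 BET genes. Several members can share 1 intron, so these are not counts of genes. The counts of each list stand against the shares over all members for DTP against control. These were 23.7% higher and 49.7% lower in H1975, 17.9% and 32.8% in PC9, and 27.1% and 27.7% in HCC2935. In H1975 DTP cells, 2 of 37 members in integrin, collagen and laminin genes rose and 29 fell, with a median of -1.11, where all members had a median of -0.335. The 37 include the 7 of ITGA6, which all fell. In HCC2935 16 of 40 rose and 6 fell, with a median of 0.38, and in PC9 3 of 27 rose and 10 fell. The ITGA6 region at chr2:172455051-172455552 fell in H1975 from 16.5, 14.8 and 15.6 to 1.02, 2.5 and 2.13 CPM (-3.02 ± 0.181, adjusted p = 9.48e-40). In HCC2935 a region in intron 1 of COL4A4, a chain of basement membrane collagen, rose from 0.437, 0.295 and 0.939 to 13.9, 11.4 and 7.63 CPM (4.29 ± 0.417, adjusted p = 2.91e-11). Regions in LAMC1, the laminin gamma 1 chain, and COL5A2, a fibrillar collagen chain, rose there too, by 3.65 ± 0.461 (2.03e-08) and 3.41 ± 0.488 (2.99e-07).

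Among receptor kinases of the EGFR family and of bypass signalling, 7 of 53 members rose and 38 fell in H1975, 4 of 38 rose and 12 fell in PC9, and 7 of 44 rose and 17 fell in HCC2935. Their medians were -0.66, -0.25 and -0.03. The region in MERTK, a TAM family receptor kinase, fell in H1975 from 13.6, 12.2 and 10.7 to 1.02, 0.907 and 0.224 CPM (-4.07 ± 0.247, adjusted p = 2.63e-39). One in intron 1 of EGFR fell from 5.72, 5.65 and 7.15 to 0.896, 0.567 and 1.01 CPM (-2.89 ± 0.284, 3.91e-19), with the EGFR promoter at 0.05 (0.737). Regions in NRG1, a ligand of ERBB3 and ERBB4, and in ROR1, a receptor for WNT5A, fell by 3.67 ± 0.315 (1.4e-23) and 2.45 ± 0.132 (6.67e-46). Each of these regions separated the control from the DTP libraries, which the rule for naming regions required.

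ERK feedback genes and targets had few members, with 1 of 5 higher and 4 lower in H1975, 2 of 9 higher and 6 lower in HCC2935, and 0 of 5 higher and 2 lower in PC9. The region in DUSP4, a phosphatase that switches off ERK, fell in H1975 from 19.2, 22.2 and 15.8 to 2.69, 2.72 and 2.57 CPM (-2.83 ± 0.161, adjusted p = 6.24e-43), and one in SPRED2, an inhibitor of RAF activation, by 2.21 ± 0.231 (2.83e-17). The region in ERRFI1, a feedback inhibitor of EGFR, rose from 6.03, 5.11 and 5.12 to 7.93, 10.4 and 8.06 CPM (0.71 ± 0.165, 8.99e-05). Of YAP and TEAD pathway members, 13 of 51 rose and 23 fell in H1975, 3 of 42 rose and 17 fell in PC9, and 13 of 51 rose and 10 fell in HCC2935. The H1975 counts lay near the shares over all members, 23.7% and 49.7%. WWTR1, which encodes the coactivator TAZ, had a region that fell by 3.05 ± 0.266 in H1975 (4.99e-23) beside a promoter that fell by 2.64 (3.19e-68), and WWC1, a scaffold upstream of LATS kinases, one that rose by 4.18 ± 0.353 in HCC2935 (6.35e-13). A region in NT5E, an ectonucleotidase, fell by 2.83 ± 0.152 in H1975 (3.16e-46).

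In TGF-beta and epithelial-mesenchymal transition genes, 7 of 26 members rose and 14 fell in H1975, 1 of 19 rose and 8 fell in PC9, and 9 of 28 rose and 5 fell in HCC2935. Here too the H1975 counts lay near the shares over all members, 23.7% and 49.7%. ACVR1, a type I activin and BMP receptor, had a region that fell in H1975 from 34.0, 32.8 and 30.1 to 4.73, 4.31 and 4.93 CPM (-2.79 ± 0.123, adjusted p = 1.85e-58), and SMAD3, a TGF-beta effector, one that fell by 1.95 ± 0.22 (3.11e-15) while its promoter rose by 0.63 (1.58e-08). In PC9, regions in TGFB2, a TGF-beta ligand, and TGFBR3, its coreceptor, fell by 1.97 ± 0.178 (2.55e-24) and 1.87 ± 0.238 (8.13e-13). Alveolar and airway lineage genes gave 3 of 14 higher and 4 lower in PC9, 4 of 10 and 5 in H1975, and 6 of 18 and 5 in HCC2935. The region in TP63, the basal cell factor p63, fell by 3.09 ± 0.225 in H1975 (3.76e-30), and one in CLIC5, a chloride channel protein of alveolar type I cells, rose by 3.17 ± 0.283 in HCC2935 (2.71e-12).

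WNT and R-spondin receptors and effectors had 3 of 16 members higher and 10 lower in H1975, 5 of 15 and 4 in PC9, and 3 of 12 and 4 in HCC2935. The region in LGR4, an R-spondin receptor, fell in H1975 from 8.35, 9.28 and 8.09 to 0.256, 0.794 and 0.0 CPM (-4.55 ± 0.317, adjusted p = 3.46e-32), beside a promoter with a change of -0.19 (0.0702). BET proteins and elongation factors had 2 of 14 members higher and 8 lower in H1975, 0 of 8 and 4 in PC9, and 2 of 6 and 1 in HCC2935. In HCC827, 0 of 242 members of the 8 lists were called for DTP against control in edgeR, and 6 rose and 7 fell with the replicate block. The 242 sum the lists, so a gene in more than 1 list, such as TGFB2, counts in each. Receptor kinase genes held 174 of them and EGFR alone 156, so these counts mostly describe 1 gene. Over all members the block gave 3.24% higher and 5.08% lower. The list members that fell were in ITGA2, ITGA6 and other genes, and those that rose included a CLIC5 region.

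Most first-intron changes had no called change of the same direction at the strongest promoter region of the host gene. Of members that fell in DTP cells and whose host promoter was measured, the promoter also fell for 23.4% in PC9, 37.2% in H1975 and 27.3% in HCC2935. Among members that were not called, the host promoter fell for 18.5%, 34.4% and 14.1%. Of members that rose, the promoter rose for 13.6%, 25.7% and 37.4%, against 9.92%, 16.4% and 21.4% of members not called, and it fell for 14.7%, 27.6% and 9.13%. Across members, Spearman's rho between the change of the member and of its host promoter was 0.1 in PC9 (n = 4435), 0.11 in H1975 (n = 5581) and 0.3 in HCC2935 (n = 4810), and 0.13, 0.11 and 0.24 for the remaining intron regions, as a description over regions of the same libraries. HCC2935 thus had the largest of these values in both classes.

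AZD5153 alone, compared with control in untreated cells, lowered more first-intron regions than it raised. In H1975, 1505 members rose (19.3%) and 4527 fell (58.0%), with a median of -0.655, while 26.7% of all regions tested rose and 31.4% fell, and 39.9% of promoters rose and 29.4% fell. The remaining intron regions gave 18.7%, 57.2% and a median of -0.648. Members over 30 kb from the nearest start fell in 61.2% of cases and those at 3 to 10 kb in 56.0%. Scaling by library size alone moved the median by 0.222 to -0.433. In PC9, 1108 members rose (17.8%) and 1619 fell (26.0%), against 11.2% and 14.6% of all regions and 17.7% and 23.4% of the remaining intron regions. With the libraries summed, 1625 rather than 2727 were called (26.1%, against 16.0% of annotated and 24.2% of remaining intron regions).

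Among members above the median level of the line, the largest fall with AZD5153 in PC9 was in intron 1 of METAP1D, a mitochondrial methionine aminopeptidase. It went from 6.99, 9.13 and 8.68 to 0.718, 0.0 and 0.469 CPM (-4.31 ± 0.413, adjusted p = 1.3e-21). A region in intron 1 of ABTB3 rose from 0.953, 0.761 and 0.248 to 5.03, 8.12 and 6.57 CPM (3.32 ± 0.408, adjusted p = 1.22e-13), and one in the non-coding RNA gene LINC01010 from 0.635, 2.28 and 1.49 to 9.81, 10.4 and 13.4 CPM (2.85 ± 0.29, 2.03e-19). In H1975 a region in intron 1 of FGF14, a regulator of sodium channels, had 8.2, 9.82 and 7.15 CPM in control and 0.0, 0.174 and 0.114 with AZD5153 (adjusted p = 2.82e-35), but 7.35, 9.23 and 10.1 CPM in combo libraries. Its promoter fell by 3.17 (adjusted p = 5.05e-43). A region in intron 1 of the readthrough gene ST20-MTHFS had 0.0, 0.269 and 0.0 CPM in control and 12, 12.4 and 13.0 CPM with AZD5153 (1.02e-45), and 0.656, 0.623 and 0.45 in combo libraries. Both regions showed the AZD5153 level only in the AZD5153 group of this line.

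With AZD5153 in H1975, 19.3% of all members rose and 58.0% fell. By list, it raised 5 of 37 members of integrin, collagen and laminin genes and lowered 27. It raised 6 of 53 of the receptor kinases and lowered 37. Of the YAP and TEAD pathway it raised 10 of 51 and lowered 29, near the shares of all members. The 14 members in BET and elongation genes, from 4 of the 24 genes listed, went the other way. Of these members 8 rose and 4 fell, with a median of 0.5. Among them, a region in intron 1 of MLLT1, a subunit of the super elongation complex, had 0.773, 0.538 and 0.135 CPM in control and 12.1, 8.19 and 11.1 CPM with AZD5153. In PC9 the same lists gave 8 of 27 higher and 4 lower, 7 of 38 and 10, 7 of 42 and 15, and 2 of 8 and 2. Over all members there, 17.8% rose and 26.0% fell.

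The gene with most members in H1975 was PVT1, a non-coding RNA gene beside MYC on chromosome 8, with 97. With AZD5153 alone 90 rose and 5 fell, with a median log2 fold change of 1.91, or 0.68 with the medians of 10 Mb bins subtracted, and the median region went from 2.89 CPM in control to 9.92 CPM. In DTP cells 60 rose and 9 fell, with a median region at 4.93 CPM, although the sum over the 97 was 1220.0, 1180.0 and 1150.0 CPM in control and 1170.0, 1050.0 and 1110.0 CPM in DTP libraries. All 24 members of CASC11, a neighbouring gene, rose with AZD5153. With the medians of 10 Mb bins subtracted, 59 of the PVT1 members rose and 11 fell with AZD5153 and 42 rose and 14 fell in DTP cells, and 20 of the 24 of CASC11 rose with AZD5153. Whether copy number took part was not tested. In PC9, 1 of 7 PVT1 members rose and 3 fell.

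Osimertinib-treated cells with and without AZD5153 were compared as combo against DTP. By the labels, osimertinib was given for 21 days in combo and for 24 days in DTP cells. A change with AZD5153 cannot be told apart here from a change with 3 fewer days of osimertinib. In PC9, 827 members rose (13.3%) and 1180 fell (18.9%), against 10.6% and 11.7% of all regions and 13.0% and 18.8% of the remaining intron regions. With the libraries summed, 845 rather than 2007 were called there (13.5%, against 9.23% of annotated and 13.0% of remaining intron regions). In HCC2935, 154 rose (2.22%) and 960 fell (13.9%), against 1.9% and 6.4% of all regions and 2.26% and 13.6% of the remaining intron regions. In place of the 1114 called in HCC2935, 713 were called without DTP library 1, 603 without DTP library 2 and 726 without combo library 2. In H1975, 1528 rose (19.6%) and 914 fell (11.7%), against 11.5% and 9.48% of all regions and 18.0% and 13.6% of the remaining intron regions, but this direction turned with the scaling. There were 1090 higher and 1262 lower by library size alone, 1209 and 1391 when annotated regions alone were fitted, and 598 and 663 among regions with a mean of at least 50 counts. The median of 0.046 became -0.049 by library size alone and with annotated regions alone. With the libraries summed, 636 rather than 2442 were called (8.14%, against 6.65% of annotated and 9.0% of remaining intron regions). Of annotated regions, 14.7% were higher and 14.8% lower by library size alone, 16.3% and 16.2% when they alone were fitted, and 16.2% and 17.4% with the count minimum. In HCC827, 0.0% of all regions tested were called higher or lower, and 0 members were called in edgeR or DESeq2. In edgeR 150 members had an unadjusted p under 0.05 (5.52%, against 3.45% of annotated and 6.62% of remaining intron regions). The replicate block gave 0 higher and 3 lower (0.11%), against 0.0% and 0.0458% of annotated regions and 0.0% and 0.069% of the remaining intron regions.

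A region in intron 1 of LINC00964, a non-coding RNA gene, had the largest fall among those named in both PC9 and HCC2935. It went from 5.35, 6.96 and 6.51 CPM in DTP to 0.488, 0.265 and 0.266 in combo libraries of PC9 (-4.06 ± 0.466, adjusted p = 7.85e-15) and from 14.1, 16.0 and 11.8 to 1.12, 1.15 and 1.41 in HCC2935 (-3.5 ± 0.277, 5.85e-12). The CALD1 region, in the gene of the actin-binding protein caldesmon, rose in PC9 from 4.37, 3.87 and 2.5 to 12.9, 13.3 and 16.5 CPM (1.98 ± 0.22, 1.22e-15), and had 0.318, 0.254 and 0.248 CPM in control. PLPP3, a lipid phosphatase, rose from 1.46, 5.16 and 2.25 to 12.4, 13.3 and 14.7 CPM (2.19 ± 0.235, 9.76e-17). In H1975 a region in intron 1 of CHRM3, a muscarinic acetylcholine receptor, fell from 8.06, 7.26 and 8.96 in DTP to 0.918, 0.499 and 0.563 CPM in combo libraries (-3.6 ± 0.271, 5.79e-27), near its control level of 1.08, 1.08 and 0.944. In HCC2935, SGPP2, a sphingosine-1-phosphate phosphatase, rose from 0.95, 2.32 and 0.954 to 6.88, 8.5 and 10.7 CPM (2.56 ± 0.313, 1.89e-07).

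The change with AZD5153 was read in untreated cells (AZD5153 against control) and in osimertinib-treated cells (combo against DTP), comparisons that share no libraries. The second comparison also holds the difference of 3 days of osimertinib. In H1975, 649 members fell in both settings, 286 rose in both, 867 fell in untreated cells and rose in osimertinib-treated cells, and 82 did the opposite. The 867 were 56.7% of the 1528 that rose in treated cells, and the 649 were 71.0% of the 914 that fell, near the 57.1% and 68.0% of the remaining intron regions, while all annotated regions gave 38.6% and 62.5%. In PC9 558 fell in both, 224 rose in both, and 113 and 124 went opposite ways. Spearman's rho between both log2 fold changes was 0.16 in H1975 (n = 7810) and 0.31 in PC9 (n = 6237), and 0.15 and 0.3 for the remaining intron regions, as a description across regions. These counts carry the dependence of combo against DTP on scaling in H1975.

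**Figure D5:**
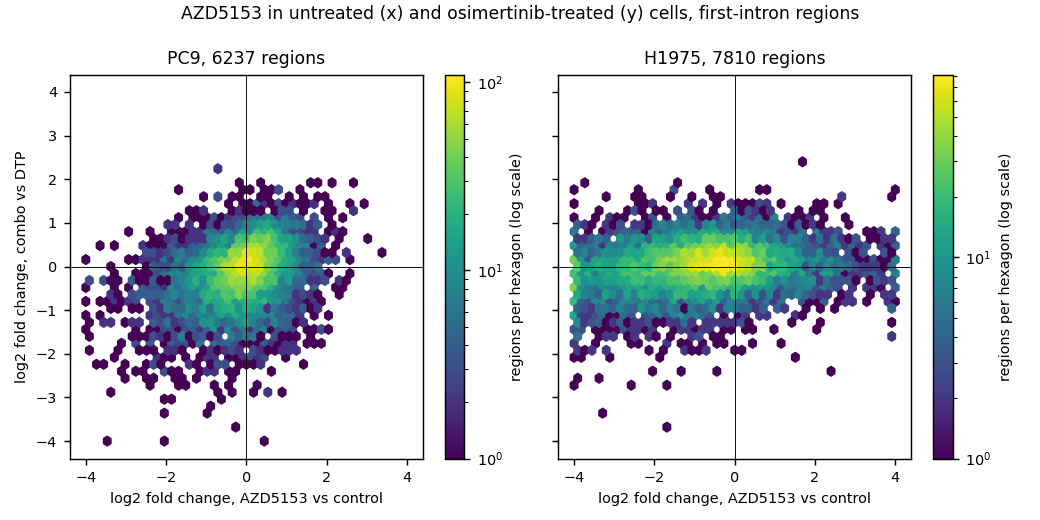
Hexagons give the number of first-intron regions (colour, log scale) by the log2 fold change of AZD5153 against control (horizontal axis) and of combo against DTP (vertical axis), with values beyond 4 placed at the edge. In H1975 the cloud is wide along the horizontal axis and narrow along the vertical one, with rho 0.16, and in PC9 it is rounder, with rho 0.31.

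Combo cells were also compared with control. In PC9, 1411 members rose (22.6%) and 2485 fell (39.8%), against 23.3% and 23.4% of all regions and 23.8% and 36.9% of the remaining intron regions. In H1975 2149 rose (27.5%) and 3667 fell (47.0%), against 27.2% and 28.6% of all regions and 29.5% and 43.7% of the remaining intron regions. In HCC2935 1835 rose (26.5%) and 2350 fell (33.9%), against 20.7% and 21.6% of all regions and 26.0% and 33.5% of the remaining intron regions. In HCC827 1 rose (0.0368%) and 12 fell (0.442%), against 0.0364% and 0.121% of all regions tested and 0.161% and 0.391% of the remaining intron regions. The replicate block gave 59 higher (2.17%) and 360 lower (13.3%), against 1.63% and 8.27% of annotated regions and 3.2% and 13.1% of the remaining intron regions. Without the libraries numbered 3, 43 rose (1.62%) and 381 fell (14.3%), against 1.28% and 7.62% of annotated regions and 1.78% and 13.1% of the remaining intron regions. Of the 6 fits that left out 1 library, that without combo library 3 called 8 members and the other 5 called 0. Among the 12, a region in intron 1 of USP25, a deubiquitinase, fell from 65.8, 65.5 and 72.1 CPM to 6.98, 7.48 and 10.7 CPM, and one in intron 1 of EPS8, an actin-capping substrate of EGFR, from 31.9, 28.0 and 53.1 to 7.67, 6.54 and 7.04 CPM, both named after their values were seen. The USP25 region missed the threshold in 5 and the EPS8 region in all 6 of the fits that left out 1 library. The largest fall in HCC827 lay 27.8 kb from the start of SRI, which encodes the calcium-binding protein sorcin, and went from 52.8, 45.8 and 65.8 CPM in control through 8.6, 7.55 and 11.6 in DTP to 2.79, 2.8 and 0.371 in combo libraries (-4.97 ± 0.547, adjusted p = 0.0361). It passed with the replicate block (1.23e-06) but missed the threshold in 5 of the 6 fits that left out 1 control or combo library.

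Against AZD5153 alone, combo libraries of PC9 had 1624 members higher (26.0%) and 2234 lower (35.8%), when 22.5% and 20.5% of all regions were called. The remaining intron regions gave 26.4% and 34.4%. In H1975 the lean was the other way, with 3663 higher (46.9%) and 2250 lower (28.8%), against 31.2% and 29.9% of all regions and 49.9% and 27.0% of the remaining intron regions. A region in intron 1 of SPIN1, a reader of histone methylation, had the largest fall in H1975, from 20.4, 19.5 and 20.5 CPM with AZD5153 to 0.394, 0.873 and 0.563 in combo libraries (-5.01 ± 0.216, adjusted p = 2.68e-60), and held 9.9, 9.69 and 12 in control and 2.05, 1.47 and 1.46 in DTP libraries. Its promoter changed by -0.06 (0.654).

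First-intron regions and remaining intron regions differed little in the percent called when both directions were added. By direction they differed more for DTP against control in H1975. There 49.7% of first-intron and 45.3% of remaining intron regions fell, and 23.7% and 27.7% rose. In PC9 32.8% and 29.3% fell and 17.9% and 19.1% rose, and in HCC2935 27.7% and 26.9% fell and 27.1% and 27.0% rose. The difference in the total called, first minus remaining, was 2.23 percentage points for DTP against control in PC9, 0.38 in H1975 and 0.83 in HCC2935, and 2.61 and 1.32 for AZD5153 against control in PC9 and H1975. Over all 16 comparisons it ran from -1.17 points, for combo against AZD5153 in H1975, to 2.61. The sign turned in H1975 for DTP against control by library size alone (-0.78) and for combo against AZD5153 with the medians of 10 Mb bins subtracted (0.9). In HCC2935 the differences of 0.83, 0.25 and 0.89 for DTP against control, combo against DTP and combo against control became -0.33, -0.34 and -0.93 with a log2 fold change of at least 1 required, and in HCC827 that of -0.07 for combo against control became 0.06 beyond 10 kb. No test of these differences was made, since regions are not replicates.

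Peaks called by the authors in each library were read as well. The peak lists differed in length within and between groups, and the part of that length in the shares was not tested. In PC9 the lists held 127720 to 164987 peaks for control, 172227 to 174356 for DTP, 149810 to 166237 for AZD5153 and 151406 to 163828 for combo, and in H1975 175567 to 199470, 215783 to 224437, 130806 to 222222 and 188695 to 206030. For control, DTP and combo libraries of HCC2935 the ranges were 100211 to 204759, 111756 to 125218 and 98538 to 129314, and for those of HCC827 44119 to 165773, 29402 to 157598 and 38683 to 133445. In PC9 87.8% ± 2.37 (SD, n = 3) of members lay under a peak of a control library, 89.7% ± 0.646 in DTP, 88.2% ± 0.266 in AZD5153 and 83.9% ± 1.03 in combo libraries. In H1975 the shares were 93.2% ± 0.771, 93.0% ± 0.842, 81.5% ± 3.59 and 90.8% ± 0.803, with AZD5153 alone lowest. HCC2935 gave 83.9% ± 2.33 in control, 89.6% ± 2.0 in DTP and 82.9% ± 5.57 in combo libraries, and HCC827 89.4% ± 5.83, 77.9% ± 19.7 and 68.2% ± 22.1. Without the libraries numbered 3, HCC827 had 89.4 and 83.6% in control, 83.2 and 56.1% in DTP and 49.0 and 63.3% in combo libraries. The remaining intron regions had 87.1% and 90.4% in PC9 control and DTP libraries, and 92.6% and 80.5% in H1975 control and AZD5153 libraries. In H1975, 597 members had a peak in all 3 control libraries and in no AZD5153 library, and 140 the reverse. For DTP against control, 187 members gained and 117 lost a peak in this sense in PC9, 193 and 186 in H1975, and 473 and 273 in HCC2935. In HCC827, with the libraries numbered 3 included, the counts were 39 and 38. A peak in every library of the line was found for 3190 of 6237 members in PC9, 4720 of 7810 in H1975, 678 of 2735 in HCC827 and 3487 of 6929 in HCC2935. These counts of gained, lost and constant peaks were not made for the remaining intron regions, so they do not compare the classes.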

How the data were processed

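ATAC-seq was run on 42 libraries of 4 cell lines. The deposited tables give, per library, whole-number read counts in regions of 502 bp, which the authors made with tools their processing notes list without roles (BWA 0.7.17, SAMtools 1.9, deepTools 3.4, MACS2 2.2.6, featureCounts 2.0.0, ChIPseeker 1.29.1) on hg38. The deposited peak files hold 1 peak list per library, with the −log10 q of each peak as the peak caller gave it. The extraction protocol in the labels describes a ChIP assay, and the values were read as ATAC-seq, the assay that the series title names.

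Groups followed the labels. First-intron and remaining intron regions came from the deposited annotation of a filtered subset of regions. Each line's full table was fitted in edgeR 4.0.16 (R 4.3.3) with the quasi-likelihood test, TMM scaling and a filter on low counts, with Benjamini-Hochberg adjustment over all regions tested and calls at an adjusted p under 0.05. CPM values are TMM-normalised. The SE is the absolute log2 fold change divided by the square root of F. The fit was tested on simulated data. Alternatives included DESeq2 1.42.0, other scalings and filters, a replicate block, libraries summed, medians of 10 Mb bins removed and leaving out each library.

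Libraries with the same replicate number deviated together in HCC827 (correlations of 0.257 to 0.827) but not in PC9 (-0.01 to 0.013), H1975 (-0.062 to 0.015) or HCC2935 (-0.074 to 0.206, with 0.095 to 0.206 between DTP and combo), so blocked values stand beside HCC827 results. For combo against DTP in HCC2935 the block called 1184 members rather than 1114. Named regions were called members above the median level of their line whose groups did not overlap: the largest changes per comparison, introns whose members all moved one way, regions shared by 3 lines and the leading members of 8 gene lists. A region in a transcript without a symbol carries the name of the nearest start. The members and lists were chosen with earlier results of these data known. Intervals from libraries cover the spread between them. That spread was widest in HCC827, the shallowest line, at 1.206 to 8.764 times counting noise between replicate pairs. A result for one of the list members is not reported here.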

Additional observations from a re-analysis of the deposited data

Results flagged for a closer look

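Matched first-intron regions were listed where every library of a group moved one way in 1 line and the opposite way in another for DTP against control. There were 192 such regions between PC9 and H1975, 165 between PC9 and HCC2935 and 233 between H1975 and HCC2935. These were 5.08%, 4.78% and 6.09% of the matched first-intron regions, against 5.05%, 4.71% and 5.11% of remaining intron regions and 3.87%, 3.24% and 4.48% of all annotated regions matched in the same way. The difference between the lines was not tested.

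The same was done for AZD5153 in untreated cells and after osimertinib. The groups separated in opposite directions for 206 first-intron regions in PC9 and 851 in H1975, or 3.3% and 10.9% of them, against 2.86% and 10.5% of the remaining intron regions and 1.95% and 8.84% of all annotated regions. The difference between the settings was not tested, and the count in H1975 rests on combo against DTP, whose direction turned with the scaling. Combo and DTP cells also differed by 3 days of osimertinib.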

How the results depend on the processing

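No named region reversed its direction under the alternatives run for it. The naming rule took called regions whose groups did not overlap, so a reversal was unlikely from the start. The lean of combo against DTP in H1975 turned with the scaling, and many counts of first-intron regions called moved by over 1.5 times. Regions with a log2 fold change of at least 1 numbered, for DTP against control, combo against DTP and combo against control, 1556, 787 and 2365 in PC9, 3211, 420 and 3339 in H1975 and 2247, 529 and 2659 in HCC2935. For AZD5153 against control and combo against AZD5153 they numbered 1255 and 2307 in PC9 and 3974 and 3730 in H1975. With a mean of at least 50 counts, fewer regions were tested, and 698, 518, 867, 649 and 848 were called in PC9 and 2499, 1261, 2535, 2679 and 2737 in H1975, in that order of comparisons. The same filter gave 1084, 461 and 1275 in HCC2935, and 3 and 55 for DTP and combo against control in HCC827.

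DESeq2 called 1105 in PC9, 1291 in H1975 and 545 in HCC2935 for combo against DTP, and 26 and 56 in HCC827 for DTP and combo against control. Summing libraries gave 2042, 845 and 1625 in PC9 for DTP against control, combo against DTP and AZD5153 against control, 636 in H1975 and 689 in HCC2935 for combo against DTP, and 487, 168 and 616 in HCC827. In HCC827 the replicate block gave 226, 3 and 419, and libraries 1 and 2 alone 135, 1 and 424. For DTP and combo against control there, annotated regions alone gave 28 and 141, library size alone 0 and 8, no filter 2 and 7, and regional medians removed 2 and 21, and DESeq2 size factors gave 4 for combo against control. Without the filter, combo against DTP in HCC2935 gave 654. The cause of these differences was not tested, except that a fold threshold and a count filter keep fewer regions.

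Leaving out each library gave 2782 to 2840, 1590 to 1674 and 3572 to 3611 in PC9, 5404 to 5527, 1795 to 2117 and 5483 to 5554 in H1975, 0 to 0, 0 to 0 and 0 to 8 in HCC827, and 3084 to 3620, 603 to 803 and 3578 to 4024 in HCC2935. For AZD5153 against control and combo against AZD5153 it gave 2356 to 2433 and 3541 to 3602 in PC9, and 5715 to 5874 and 5580 to 5713 in H1975.

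The share of members under a peak fell with a −log10 q of at least 5 to 70.9, 67.7, 72.9 and 61.5% in PC9 control, DTP, AZD5153 and combo, 86.0, 82.5, 69.7 and 79.7% in H1975, 73.6, 55.3 and 45% in HCC827 and 65.9, 83.0 and 75.8% in HCC2935. With at least 0.5 of the region covered it was 28.5, 29.0, 28.8 and 26.2%, 38.2, 37.6, 25.3 and 38.0%, 26.5, 26.7 and 23.2%, and 25.6, 28.3 and 24.2%. The HCC827 means hold unlike libraries. At a −log10 q of at least 5, its libraries 1 and 2 had 75.3 and 65.3% in control, 45.3 and 38.2% in DTP and 25.2 and 27.0% in combo. Those numbered 3 had 80.2, 82.5 and 82.9%. With 0.5 covered, libraries 1 and 2 had 21.9 and 15.9%, 22.1 and 7.68%, and 13.9 and 14.7%, and those numbered 3 41.6, 50.2 and 40.9%. The replicate block changed no call of a named region outside HCC827. Of 624 fits that left out a library, run for the regions that the naming rule chose, 11 lost the call, all for OSMR-DT and SRI in HCC827. That rule took regions whose groups did not overlap, which favours keeping the call. BMP6, EPS8 and USP25, named after their values were seen, lost it in 6, 6 and 5 of 6 such fits.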
